A study of Mus musculus with 18 samples.

Results

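The collagen genes are the rows of the count table whose Ensembl ID is paired, in the deposited files, with a symbol of the form Col, a number, the letter a and a number. This rule, which uses no measured value, found 44 genes among the 55573 rows, and 43 of them passed the filter on low counts over all samples. The gene left out by the filter was *Col10a1*. The ipsilateral dorsal horn of the spinal cord (DHSC) was sequenced in 18 samples from adult C57BL/6J mice of lumbar segments L3 to L5, 2 h after a 2% formalin solution had been injected into the hindpaw. The samples fall into 6 females labelled F1/proestrus, 6 females labelled F2/metestrus and 6 males. F1 and F2 name females with a short or a long interphase between the early and the late pain behavior, and the cycle stage was read by vaginal cytology. All groups were injected, so no level without formalin can be given, and no group carried a genetic change.

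Collagens are the main structural proteins of the extracellular matrix. Each chain carries long stretches in which glycine returns at each turn of a 3-residue repeat, and these stretches allow chains to wind into a triple helix. Fibrillar collagens build the fibrils of connective tissue, basement membrane collagens form the sheet beneath vessels and at the surface of the cord, and other classes decorate fibrils, form networks or stay anchored in the cell membrane. In the spinal cord they are made mostly by fibroblasts of the meninges and of vessel walls, by mural and endothelial cells and, in the nerve roots, by Schwann cells.

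In the helix region 1 codon in 3 reads GGN, the code for glycine, and the exons of the fibrillar genes keep this register. The 54-base coding exons below come from GENCODE vM21 on GRCm38, are written 5′ to 3′ on the coding strand with the glycine codons in capitals, and are shown because the repeat is what all members share beyond their names. They lie at chr11:94939904-94939957 (plus strand, *Col1a1*), chr6:4515481-4515534 (plus strand, *Col1a2*), chr1:45325360-45325413 (plus strand, *Col3a1*) and chr1:45434892-45434945 (minus strand, *Col5a2*).
Col1a1: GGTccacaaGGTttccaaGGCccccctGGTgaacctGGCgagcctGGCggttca
Col1a2: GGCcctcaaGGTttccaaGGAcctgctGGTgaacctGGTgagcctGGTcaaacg
Col3a1: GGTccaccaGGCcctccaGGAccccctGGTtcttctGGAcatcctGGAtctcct
Col5a2: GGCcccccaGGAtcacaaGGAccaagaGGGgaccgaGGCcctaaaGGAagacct

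Each of these exons holds 6 glycine codons in 54 bases. Among the coding exons of the 44 members, 469 of 2005 (23.4%) were exactly 54 bases long, against 876 of 197533 (0.444%) in 21907 other protein-coding genes. The longest unbroken run of GGN at 1 codon in 3 ranged from 23 triplets in *Col26a1* to 344 triplets in *Col3a1*. The 11 fibrillar members stood apart, with 216 triplets in *Col24a1*, 217 in *Col27a1* and 337 to 344 in the other members of the class. Outside the family 18 genes reached a run of 23 triplets, with a maximum of 81 in *Marco*, a scavenger receptor, and they included the complement subunit gene *C1qb* and the collagen tail of acetylcholinesterase, *Colq*.

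**Figure D1:**
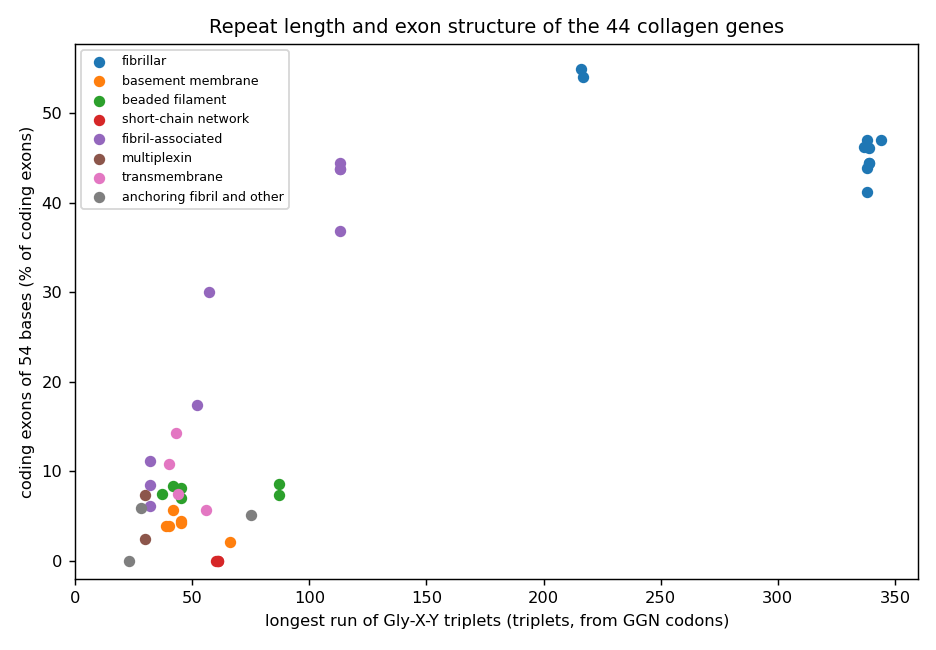
Each point is 1 of the 44 collagen genes, with the longest run of glycine triplets on the x axis, the share of coding exons that are 54 bases long on the y axis (in %) and the class in color. The 11 fibrillar genes lie at the right, at 216 to 344 triplets, and the other classes lie to the left of them.

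Start regions were read from RefSeq windows on GRCm38.p6 that run from 250 bases before a gene's start to 50 bases after it, and 35 of the 44 members had a window. The 150 bases before the start of *Col1a2* (chr6:4505468-4505617, plus strand) and of *Col3a1* (chr1:45311388-45311537, plus strand) are shown because the levels of these genes moved together across the samples. Capitals mark the letters of a CCAAT box in *Col1a2*, beginning at -109 from the start, and of a TATA box (TATAAA) in *Col3a1*, beginning at -117. Whether either match acts in the promoter was not tested. No other match of these motifs, or of the GC box (GGGCGG), lay in these 150 bases on either strand.
Col1a2: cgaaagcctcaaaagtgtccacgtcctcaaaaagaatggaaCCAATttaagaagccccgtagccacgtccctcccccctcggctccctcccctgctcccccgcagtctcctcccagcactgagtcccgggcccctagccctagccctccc
Col3a1: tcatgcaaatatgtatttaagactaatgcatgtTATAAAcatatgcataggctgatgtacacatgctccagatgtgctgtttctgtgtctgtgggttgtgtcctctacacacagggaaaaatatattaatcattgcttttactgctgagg

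Over the whole 300-base windows, TATAAA was found on either strand in 5 of 35 members (14.3%), against 14.2% of all 27025 windows. CCAAT was found in 12 members (34.3%), against 37.9% of all windows. GGGCGG was found in 22 members (62.9%), against 35.9% of all windows. Of genes with more than 1 window, in the family *Col18a1*, *Col6a2* and *Col9a1*, the first listed window was used, and a CCAAT box in the other window of *Col9a1* was not counted. These matches are a description of the letters in the window. Several members are neighbors in the genome. *Col4a1* (chromosome 8, minus strand, 11198423 to 11312826) and *Col4a2* (chromosome 8, plus strand, 11312805 to 11449287) start head to head and overlap by 22 bases, and *Col4a3* and *Col4a4* on chromosome 1 start 71 bases apart. The 242 bases around the *Col4a1* and *Col4a2* starts held 1 CCAAT box and 2 GC boxes, and 0 TATA boxes.

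Reads on exons added up to between 73590509 and 125724156 counts per sample, and the collagen genes took between 0.0560% and 0.100% of them. At this depth 3 counts, taken as the smallest readable signal, corresponded to 0.0240 to 0.0407 CPM (counts relative to the library size, adjusted with TMM). A first header line of the count table names libraries by numbers that fall into 2 runs, 27 to 35 for replicates 1 to 3 of every group and 188 to 196 for replicates 4 to 6, so values are given within each set where a result is touched. F1/proestrus 5 stood apart in genes of sensory ganglion neurons: the 6 markers listed summed to 562 CPM there and to 7.45 to 60.8 CPM in the other 17 samples, and *Scn10a*, a sodium channel of nociceptors, reached 125 CPM. The dorsal horn markers *Lmx1b*, *Tlx3* and *Lbx1* were present in all 18 samples. In bulk tissue, fewer cells of a type and less RNA per cell cannot be told apart. The labels number the samples, and the legends of the study count its group sizes in animals. P-values measure the spread between these samples.

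Basement membrane and interstitial collagens led the dorsal horn when levels were set per length, as CPM per kb of exon. *Col4a1* and *Col4a2* encode the ubiquitous network of the basement membrane, with 10.7 ± 2.12 and 9.09 ± 1.57 CPM per kb (SD, n = 18). *Col1a2*, a chain of type I collagen, had 10.2 ± 2.34 CPM per kb (SD, n = 18), and *Col3a1*, which forms thin fibrils beside type I, had 8.72 ± 3.46 CPM per kb (SD, n = 18). *Col23a1*, a transmembrane collagen, completed the first 5 with 8.54 ± 1.18 CPM per kb (SD, n = 18). Neighbors among these 5 differed by less than their spread, and the order changed with the length used. Divided by the longest transcript, *Col1a2* came first at 23.6 CPM per kb, followed by *Col3a1* at 15.4, *Col4a1* at 12.1, *Col4a2* at 9.32 and *Col23a1*. Divided by the coding length, *Col1a2* had 30.7 CPM per kb and the transmembrane *Col23a1* came second at 29.3. The next members by exon length were *Col1a1* (6.09 ± 2.27 CPM per kb), *Col9a3* (5.88 ± 0.516) and *Col6a1* (5.62 ± 2.12), each with the SD over 18 samples. A gap followed down to *Col9a2* at 2.96 ± 0.384 CPM per kb (SD, n = 18).

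*Col4a3* and *Col4a4*, chains of the basement membrane of kidney and lung, had 0.0761 and 0.0400 CPM per kb, and *Col17a1*, a collagen of skin attachment, had 0.0339. *Col2a1*, the fibril collagen of cartilage, had 0.251 CPM per kb. *Col10a1*, which marks hypertrophic cartilage, had between 0 and 12 counts per sample, and 2 males had 0 counts, which allows a level of up to 0.0272 CPM and 0.0334 CPM from counting error alone.

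**Figure D2:**
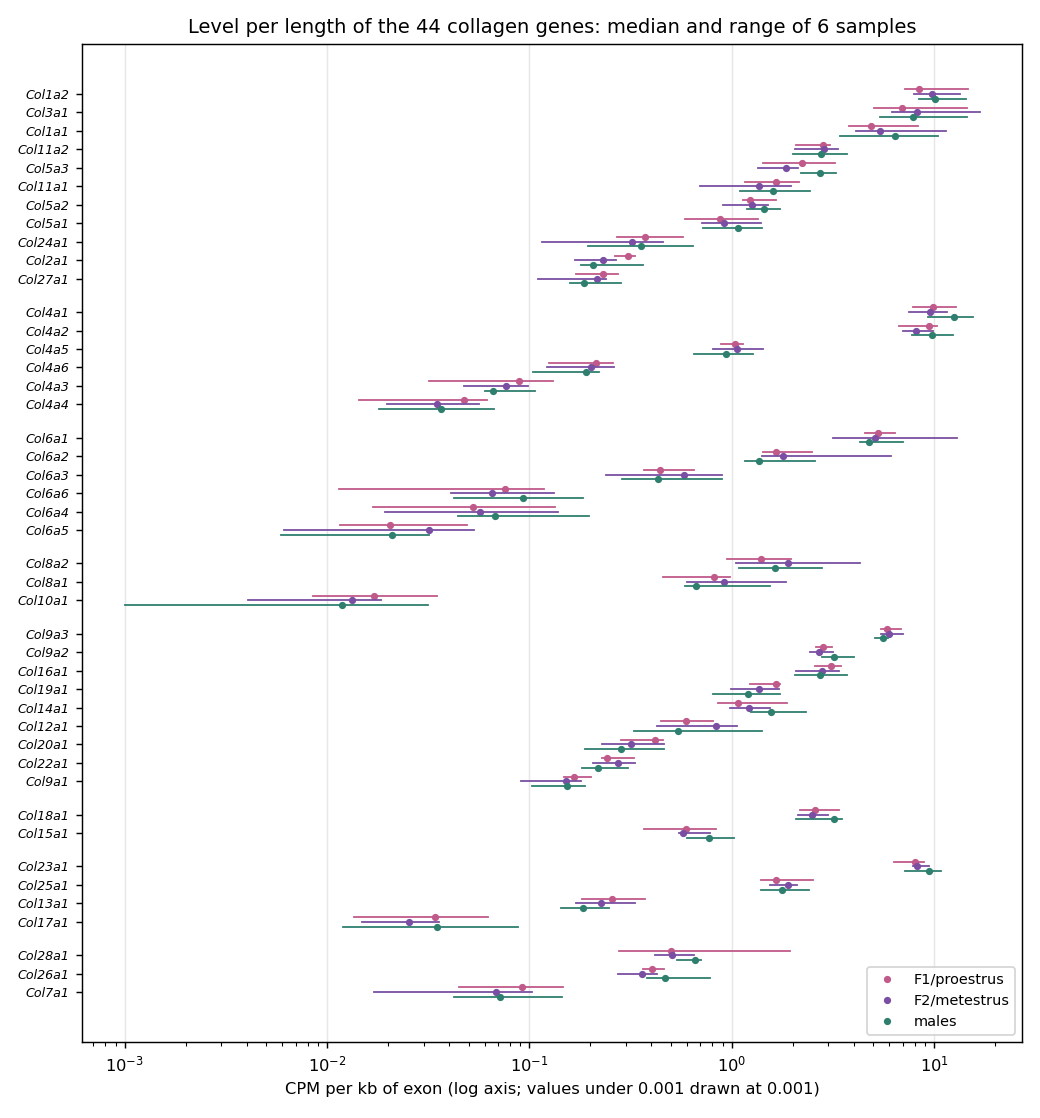
Levels of the 44 collagen genes in CPM per kb of exon on a log axis, grouped by class, with a point at the median and a line from the lowest to the highest of 6 samples for each group. Levels run from 0.0155 CPM per kb as the mean of *Col10a1* to 10.7 for *Col4a1*, and the lines of *Col5a3* in males and F2/metestrus do not overlap. Values under 0.001 are drawn at 0.001.

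The interstitial collagens varied more from sample to sample than between groups. *Col3a1* had 72.4, 84.5, 51.1, 64.0, 142 and 49.5 CPM in F1/proestrus 1 to 6. It had 60.8, 119, 88.9, 63.1, 165 and 73.2 CPM in F2/metestrus 1 to 6, and 76.9, 77.7, 142, 52.7, 88.4 and 69.6 CPM in males 1 to 6. The highest samples were F1/proestrus 5, F2/metestrus 2 and 5, and male 3, so that each group held at least 1 of them and the groups overlapped widely. *Col1a1*, the partner chain of *Col1a2* in type I collagen, had 54.3 CPM in F1/proestrus 5, 74.8 CPM in F2/metestrus 5 and 68.9 CPM in male 3. The remaining samples had 22.4 to 48.6 CPM. *Col1a2* had 89.4 to 182 CPM with a median of 104 in F1/proestrus, 98.3 to 166 with a median of 121 in F2/metestrus, and 105 to 179 with a median of 125 in males. Between the lowest and the highest of 18 samples *Col3a1* differed 3.33-fold and *Col1a1* 3.34-fold, but *Col1a2* differed 2.03-fold.

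In other classes single samples carried much of the spread. *Col6a2*, a chain of the beaded filaments around cells, reached 51.1 CPM in F2/metestrus 5 and 26.3 CPM in F2/metestrus 2, against 9.63 to 21.3 CPM in the other 16 samples. *Col6a1*, its partner chain, had 56.6 CPM in F2/metestrus 5 and 13.9 to 33.7 CPM elsewhere. *Col28a1*, a collagen of peripheral nerve and ganglia, had 9.48 CPM in F1/proestrus 5 and 1.36 to 3.46 CPM in the other 17 samples. The sample with the high *Col28a1* is the one with the ganglion genes, and their part in it was not tested. *Col9a3*, a fibril-associated chain, was the steadiest member, with 19.7 to 27.2 CPM over all samples and a coefficient of variation of 8.79%. *Col6a1*, *Col6a2*, *Col28a1* and *Col9a3* were chosen after their values were seen. Summed markers of meningeal and perivascular fibroblasts were 504 to 566 CPM in the 4 samples with high *Col3a1* and 401 to 610 CPM over all samples. This list of 14 genes holds *Pdgfra*, which is also on the list for oligodendrocyte precursors, so the sum is not of fibroblasts alone. The highest sums, 610 and 572 CPM, were in males 5 and 6. Their part in the spread of the collagens was not tested.

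**Figure D3:**
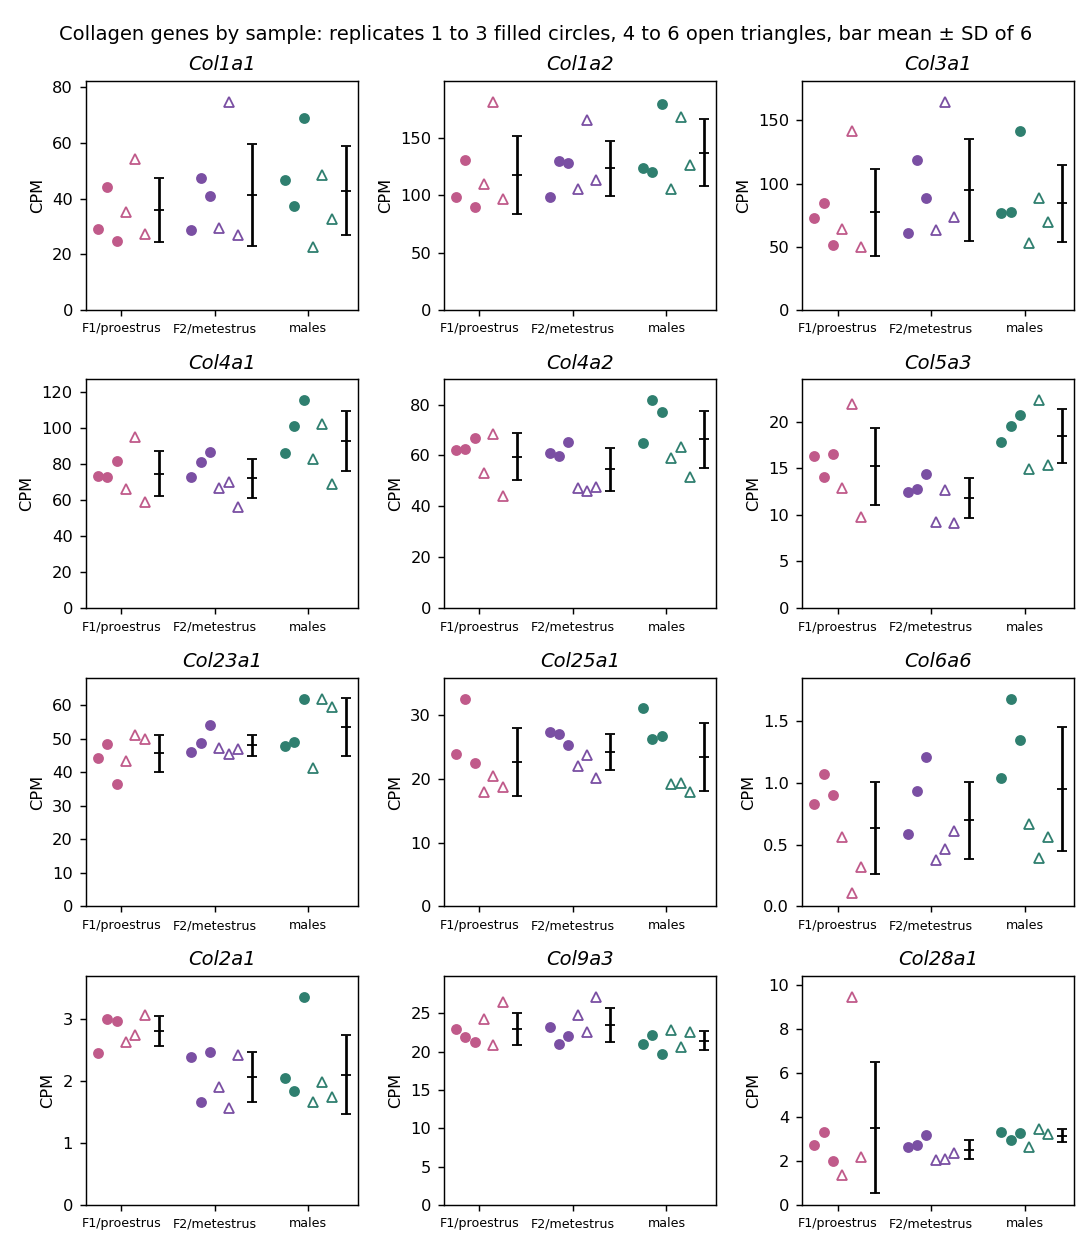
CPM of 12 collagen genes by sample, from 0 on each y axis, with the groups on the x axis, filled circles for replicates 1 to 3, open triangles for replicates 4 to 6, and the mean ± SD of 6 samples as a bar. *Col3a1* shows high samples in each group (142, 119 and 165, 142 CPM), *Col6a6* is lower in replicates 4 to 6, and *Col28a1* has 1 sample at 9.48 CPM.

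F2/metestrus was first compared with F1/proestrus, which asks whether collagen expression differed with behavior and cycle stage in the females. Of the 43 members tested, 0 were called at a false discovery rate (FDR) of 5% (edgeR), and over all 24042 genes 0% were called. DESeq2 also called 0 members. At an unadjusted p under 0.05 there were 3 members, against 2.48% of all genes, and members ran in both directions, 20 higher and 23 lower, with a median log2 fold change of -0.05. The values of F1/proestrus and F2/metestrus overlapped for all 44 members (0.105% of genes did not overlap).

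The smallest p belonged to *Col2a1*. It had 2.45, 2.99, 2.96, 2.62, 2.73 and 3.06 CPM in F1/proestrus 1 to 6 and 2.38, 1.66, 2.47, 1.90, 1.56 and 2.41 CPM in F2/metestrus 1 to 6. The highest F2/metestrus sample lay just above the lowest F1/proestrus sample. The log2 fold change was -0.44 (SE 0.13, edgeR adjusted p = 1.0), with -0.38 within replicates 1 to 3 and -0.52 within replicates 4 to 6. *Col5a3*, a minor fibrillar chain that joins type V collagen, had a log2 fold change of -0.37 (SE 0.17, edgeR adjusted p = 1.0), and without F1/proestrus 5 it was -0.24. *Col8a2*, a short-chain network collagen of endothelial basement membranes, had 4.24 to 8.76 CPM in F1/proestrus with a median of 6.23, and 4.71 to 19.2 CPM in F2/metestrus with a median of 8.47. Its log2 fold change of 0.60 (SE 0.27, edgeR adjusted p = 1.0) was 0.29 without F2/metestrus 5, the sample at 19.2 CPM. *Col12a1*, which decorates fibrils, and *Col26a1* followed with 0.40 (SE 0.20) and -0.22 (SE 0.11) on the log2 scale, both at an edgeR adjusted p of 1.0. By class, the 6 beaded filament genes had a median of 0.23 with 5 higher and the 6 basement membrane genes a median of -0.10 with 5 lower, and none of these 12 was called. Without F2/metestrus 5 the value of *Col6a1* went from 0.23 to -0.10, that of *Col6a2* from 0.57 to 0.13 and that of *Col6a3* from 0.30 to 0.15.

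Males were then compared with all 12 females, the question being whether collagens differ between the sexes. No member was called at an FDR of 5%, while 49 of 24862 genes (0.197%) were, and DESeq2 called 0 members. At an unadjusted p under 0.05 there were 8 of 43 members, 7 of them higher in males, against 9.72% of all genes. In total 23 members were higher and 20 lower, with a median log2 fold change of 0.02. No member parted males from all females (0.125% of genes did), and none parted males from F1/proestrus alone (0.334% of genes did).

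*Col4a1* was the member with the smallest p. It had 59.0 to 95.2 CPM in F1/proestrus with a median of 73.4, 56.2 to 86.8 CPM in F2/metestrus with a median of 71.4, and 69.2 to 116 CPM in males with a median of 93.8. Males 2, 3 and 5 lay above every female, and the other 3 males lay among them. The log2 fold change was 0.34 (SE 0.10, edgeR adjusted p = 0.292), with 0.36 within replicates 1 to 3 and 0.30 within replicates 4 to 6. Its neighbor *Col4a2* had 44.3 to 68.6, 46.2 to 65.4 and 51.7 to 81.7 CPM in F1/proestrus, F2/metestrus and males, with a log2 fold change of 0.22 (SE 0.11, edgeR adjusted p = 0.515). The X-linked basement membrane genes *Col4a5* and *Col4a6* had negative values, -0.18 (SE 0.13) and -0.15 (SE 0.17), with edgeR adjusted p = 0.654 and 0.794.

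*Col5a3* had 17.8, 19.5, 20.6, 14.9, 22.3 and 15.4 CPM in males 1 to 6, against 9.73 to 21.9 CPM with a median of 15.2 in F1/proestrus and 9.16 to 14.4 CPM with a median of 12.5 in F2/metestrus. All males lay above all F2/metestrus females, whereas males and F1/proestrus overlapped. Males and F2/metestrus did not overlap, in either direction, for 1 of 44 members and for 0.636% of genes. The log2 fold change of *Col5a3* against all females was 0.45 (SE 0.15, edgeR adjusted p = 0.323). Against F2/metestrus alone it was 0.64 (SE 0.13, edgeR adjusted p = 0.0925), and against F1/proestrus alone 0.26 (SE 0.16, edgeR adjusted p = 0.882).

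*Col15a1*, a multiplexin of basement membranes, had a log2 fold change of 0.42 (SE 0.15, edgeR adjusted p = 0.359), and its values were 3.81 to 6.51 CPM in males and 2.35 to 5.30 CPM in females. *Col26a1* had 0.39 (SE 0.13, edgeR adjusted p = 0.323), of which 0.21 was left without male 5, the sample at 6.35 CPM. *Col9a2*, a chain of type IX collagen, had 0.21 (SE 0.08, edgeR adjusted p = 0.365). *Col14a1*, *Col23a1* and, with the opposite sign, *Col13a1* were the other members at an unadjusted p under 0.05. Among interstitial collagens *Col1a1* had a log2 fold change of 0.50 within replicates 1 to 3 and of -0.25 within replicates 4 to 6, *Col3a1* had 0.30 and -0.39, and *Col1a2* had 0.32 and 0.05. None of these genes differed between the sets in the interaction test (edgeR adjusted p = 0.970 for each). Of 9 Schwann cell markers 8 lay above 0 in males and 1 was called higher, *Ncmap*, with a log2 fold change of 0.67 (edgeR adjusted p = 0.00655). Dorsal horn neuron markers summed to 762 to 1008 CPM in males and 588 to 769 CPM in females, with 9 of 9 above 0 and 1 called higher, *Penk*, at 0.63 (edgeR adjusted p = 0.000449). Over all genes 49.6% lay above 0 and 0.197% were called. Meningeal and perivascular fibroblast markers had 5 above 0 and 9 below, mural cell markers 6 and 4, and endothelial cell markers 3 and 7. In these lists 0 were called. The part of these cell types in the collagen values was not tested.

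The difference between the sexes was compared between the replicate sets by an interaction term. Of the 44 members tested, 0 differed at an FDR of 5%, and 0% of all 26075 genes did. DESeq2 called 0 members here too. At an unadjusted p under 0.05 there was 1 member, *Col4a4*, against 4.75% of genes, with an interaction of 1.77 on the log2 scale (SE 0.45, edgeR adjusted p = 0.970) at a level of 0.0400 CPM per kb.

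**Figure D4:**
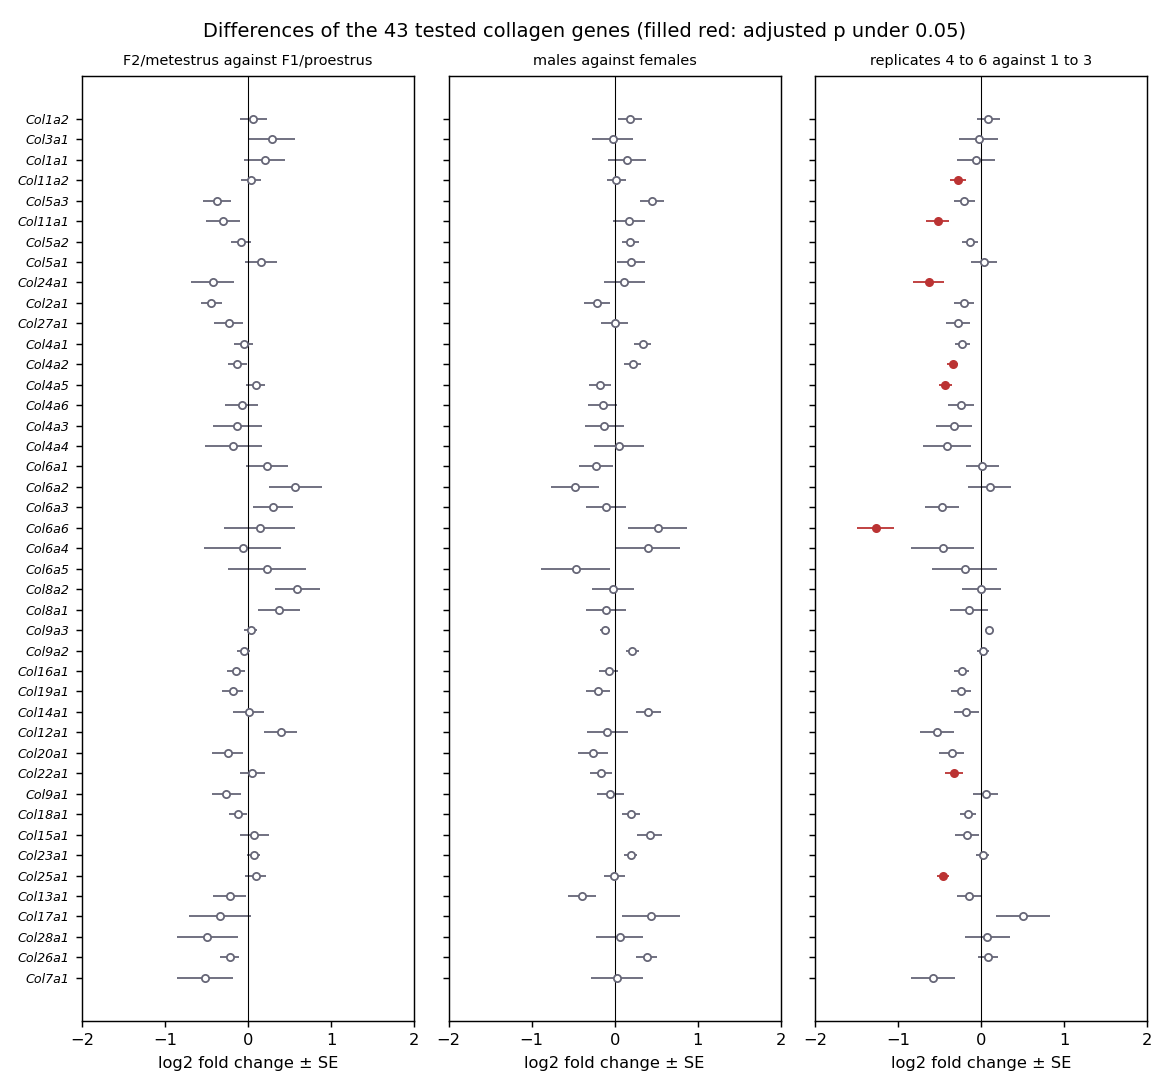
Log2 fold changes (points) with their standard errors (bars) for the 43 tested collagen genes in 3 comparisons, ordered by class, with genes at an adjusted p under 0.05 in filled red. The comparisons between groups have no red point, and the comparison of replicates 4 to 6 with 1 to 3 has 8, all below 0.

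Replicates 4 to 6 were compared with replicates 1 to 3 with the group as a covariate, since this split runs through every group. Of 43 members, 8 were called at an FDR of 5% and all 8 were lower in replicates 4 to 6. Over all genes 27.6% were called, and 15.2% were called lower. The members' share of calls is thus near the background, and 31 members lay below 0 and 12 above it, with a median log2 fold change of -0.20, against -0.01 for all genes tested. DESeq2 also called 8 members. No member parted the sets fully (4.08% of genes did).

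The called members came from 5 classes. *Col25a1*, a transmembrane collagen of neurons, had 22.5 to 32.6 CPM with a median of 26.8 in the 9 samples of replicates 1 to 3 and 17.96 to 23.8 CPM with a median of 19.3 in replicates 4 to 6. Its log2 fold change was -0.46 (SE 0.07, edgeR adjusted p = 9.61e-05). *Col6a6*, a beaded filament chain, had 0.587 to 1.68 CPM with a median of 1.04 in replicates 1 to 3 and 0.105 to 0.665 CPM with a median of 0.469 in replicates 4 to 6, and its log2 fold change of -1.27 (SE 0.23, edgeR adjusted p = 0.000324) was the largest in size among the members. The lowest value, 0.105 CPM, came from F1/proestrus 5, and without that sample the change was -1.12.

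Among basement membrane genes *Col4a5* had 6.82 to 9.54 CPM in replicates 1 to 3 and 4.34 to 6.89 CPM in replicates 4 to 6, with a log2 fold change of -0.44 (SE 0.08, edgeR adjusted p = 0.000337). *Col4a2* had 59.8 to 81.7 and 44.3 to 68.6 CPM, with -0.34 (SE 0.07, edgeR adjusted p = 0.000826). All 6 genes of the class lay below 0, and *Col4a1* missed the threshold at -0.23 (SE 0.09, edgeR adjusted p = 0.0703) but passed it at -0.29 without F1/proestrus 5, and with each sample left out in turn its edgeR adjusted p ranged from 0.00540 to 0.176. Of the 11 fibrillar genes 9 lay below 0. Those called lower were *Col11a1* (-0.53, SE 0.14, edgeR adjusted p = 0.00944), *Col24a1* (-0.63, SE 0.19, edgeR adjusted p = 0.0162) and *Col11a2* (-0.28, SE 0.09, edgeR adjusted p = 0.0295). *Col22a1*, a collagen of tissue junctions, fell by 0.32 on the log2 scale (SE 0.11, edgeR adjusted p = 0.0307). *Col11a2* and *Col22a1* each lost their call when any of several single samples was left out, with adjusted p up to 0.0884 and 0.0828. Type I and III genes gave 0.09 for *Col1a2*, -0.06 for *Col1a1* and -0.03 for *Col3a1*, all short of the threshold. Without F1/proestrus 5 there were 12 calls among the members, and without any other single sample 6 to 11.

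Correlation across the 18 samples gave a view of which members moved together, with *Col1a2* taken as the anchor of the interstitial and *Col4a1* of the basement membrane collagens. For each anchor 24861 genes were correlated on log2 CPM with a two-sided permutation test of 100000 resamples. Values were permuted freely across groups and replicate sets, so a difference between these that genes share also counts as correlation. Correlations within a group were not computed. With *Col1a2*, 45 genes (0.181%) passed an adjusted p of 0.05, and 3 of the 42 other members did. *Col1a1* had r = 0.898 and rho = 0.899 (both permutation p = 1e-05, the smallest they can give, adjusted p = 0.0178 and 0.0311) and ranked 2 of all genes. *Col3a1* had r = 0.890 and rho = 0.920 (both permutation p = 1e-05, adjusted p = 0.0178 and 0.0311) and ranked 6. *Col14a1*, which binds to the surface of fibrils, had r = 0.836 (permutation p = 4e-05, adjusted p = 0.0332) and rho = 0.887 (permutation p = 1e-05, adjusted p = 0.0311).

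The samples farthest from the median of *Col1a2* were F1/proestrus 5 and male 3. Without these 2 samples r was 0.874 for *Col1a1*, 0.830 for *Col3a1* and 0.755 for *Col14a1*, and 0 members passed the adjusted threshold. Within replicates 1 to 3 the r of these genes was 0.982, 0.922 and 0.971 (9 samples), and within replicates 4 to 6 it was 0.890, 0.907 and 0.840 (9 samples), with 0 members past the adjusted threshold in either set. Over all 24861 genes 0 passed it in each of these runs, so the counts of 0 do not set the members apart. The 5 genes closest to *Col1a2* were *Cnmd*, *Col1a1*, *Fam114a1*, *Pmp2*, which encodes a peripheral myelin protein, and *Gm37389*, with r from 0.892 to 0.902. *Col4a2* had r = 0.279 with *Col1a2* (permutation p = 0.263).

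With *Col4a1*, 0 genes (0.0%) passed an adjusted p of 0.05. The smallest permutation p the test can give is 1e-05, and over 24861 genes it passes only where several genes reach it. The count of 0 therefore does not show that no gene moved with *Col4a1*. The closest genes were *Col5a3* (r = 0.884, rho = 0.860), *Col4a2* (r = 0.878, rho = 0.870), *Itpr3*, a gene with no symbol in the files, and *Sptbn5*. For *Col5a3* and *Col4a2* the adjusted permutation p of r was 0.0710 (permutation p of r 2e-05 and 1e-05). Their r without male 3 and F2/metestrus 6, the samples farthest from the median, was 0.856 and 0.847. The multiplexins *Col15a1* and *Col18a1*, which lie in the same membranes, had r = 0.814 and r = 0.752 (adjusted permutation p = 0.149 and 0.221). *Col9a3* had the lowest r of all 24861 genes, at -0.877 (rho = -0.849, adjusted permutation p = 0.0710), and it kept its sign within both sets, at -0.70 in replicates 1 to 3 and -0.93 in replicates 4 to 6. It shares exon sequence with *Tcfl5* on the opposite strand, and whether counting used the strand is not given in the sources used here. All these samples share the normalization, and the anchors were chosen with earlier results known.

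**Figure D5:**
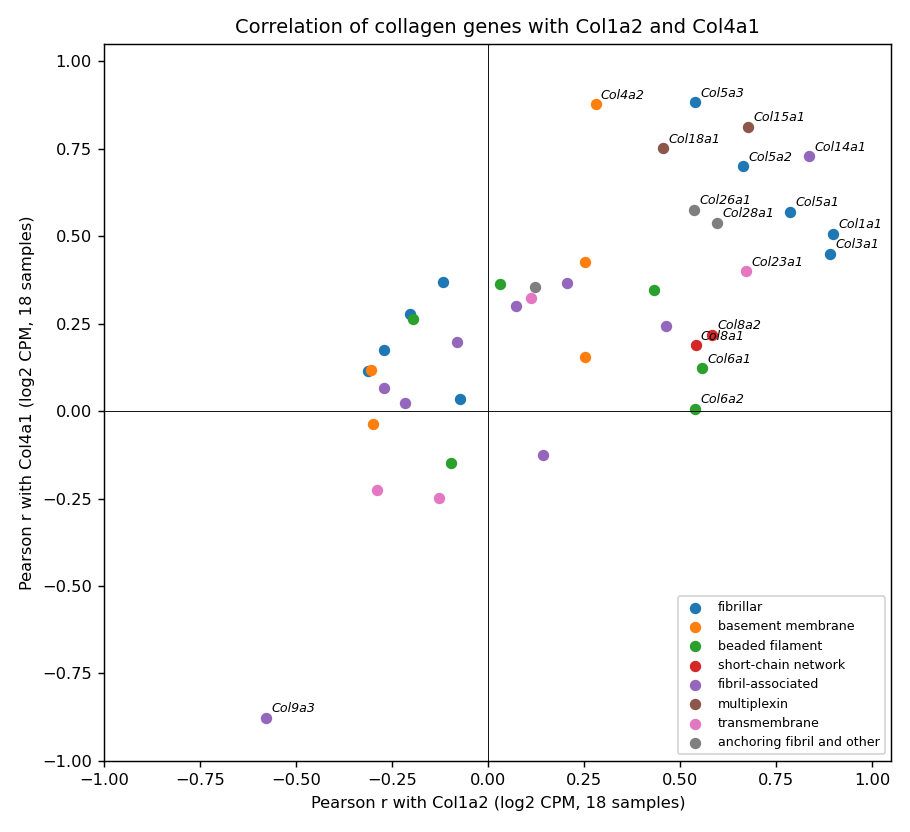
Pearson r of each collagen gene with *Col1a2* (x axis) and with *Col4a1* (y axis) over log2 CPM of 18 samples, with the class in color and names at the strongest r. *Col1a1* (0.898) and *Col3a1* (0.890) lie far to the right, *Col4a2* (0.878) and *Col5a3* (0.884) at the top, and *Col9a3* (-0.877) at the bottom.

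Genes that make, bind and degrade collagen were read from lists. The synthesis list holds 29 genes for hydroxylation, folding, propeptide cleavage and crosslinking. In F2/metestrus against F1/proestrus 0 were called, and in males against females 0, where 0% and 0.197% of all genes were called. At an unadjusted p under 0.05 in edgeR there were 2 and 4, against 2.48% and 9.72% of all genes. *Lox*, the crosslinking enzyme lysyl oxidase, had 10.1 to 23.5 CPM in males and 4.09 to 13.3 CPM in females, with a log2 fold change of 1.02 (SE 0.24, edgeR adjusted p = 0.119), and the highest values were in males 5 and 3. *Plod2*, a lysyl hydroxylase, had -0.39 (SE 0.12, edgeR adjusted p = 0.263) in males and 0.33 (SE 0.12, edgeR adjusted p = 1.0) in F2/metestrus against F1/proestrus. *P3h1*, a prolyl hydroxylase, had 0.26 (SE 0.08, edgeR adjusted p = 0.276) in males.

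Of the receptor list 0 of 10 tested genes were called in either comparison of the groups in edgeR, 0 also at an unadjusted p under 0.05, with *Itga1* at -0.22 (SE 0.11, edgeR adjusted p = 0.515) in males. With 0% and 0.197% of all genes called in these comparisons, counts of 0 in such short lists do not set them apart. Of the degradation list 0 of 12 and 0 of 13 were called, with 0 and 2 at an unadjusted p under 0.05 in edgeR, with *Timp4*, a metalloproteinase inhibitor, at 0.17 (SE 0.06, edgeR adjusted p = 0.332) and *Mmp8*, a collagenase, at 1.09 (SE 0.44, edgeR adjusted p = 0.429) in males. Of the 24 matrix partners 0 were called in either comparison, with 0 and 6 at an unadjusted p under 0.05 in edgeR, 4 of the 6 higher and 2 lower in males, against 2.48% and 9.72% of all genes at that p. Named by their p are *Ogn* at 0.64 (SE 0.19), *Sparc* at 0.22 (SE 0.07) and *Thbs2* at -0.22 (SE 0.07) in males (edgeR adjusted p = 0.271, 0.310 and 0.323). Between the replicate sets 7 matrix partners were called lower and 1 higher, against 15.2% of all genes called lower. The list includes *Lama5*, a laminin chain of basement membranes, with a log2 fold change of -0.88 (SE 0.10, edgeR adjusted p = 2.67e-06). In the same comparison 2 of 29 synthesis genes were called lower and 2 higher, 2 of 10 receptor genes lower and 1 of 12 degradation genes lower. Of all genes 27.6% were called in either direction and 15.2% lower.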

How the data were processed

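The authors deposited raw counts of reads on gene exons for 18 samples, without normalization, and a table of their own DESeq2 comparison (fold changes and p-values), of which only the gene symbols were used here. Per the methods, reads were uniquely mapped to mm10 with Subread and counted with featureCounts. The submitters' processing notes name Subread 2.0.3, bcl2fastq 2.20.0.422 and DESeq2 1.3.0, while the methods give a different version of Subread. The methods name the TruSeq kit, and the labels describe SMART-Seq amplification with Nextera XT tagmentation. Strand use is not given in the sources used here, so genes with overlapping exons are uncertain. Among them are *Col4a1*, *Col4a2*, *Col4a3*, *Col5a1*, *Col9a3*, *Col10a1*, *Col15a1*, *Col22a1* and *Col6a6*. *Col3a1* overlaps *Gm47302* on the same strand, which strand use would not resolve.

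Groups were taken from the sample labels. Counts of all genes were filtered with filterByExpr (minimum count 10, minimum total 15), normalized with TMM and tested with edgeR 4.0.16 (R 4.3.3), by the quasi-likelihood test with Benjamini-Hochberg adjustment over all genes at an FDR of 5%. Standard errors (SE) were obtained from the fold change and the F statistic. DESeq2 1.42.0, the tool of the study, was an alternative, beside other normalizations and filters, robust dispersion estimates, a block on replicate numbers, the replicate set as a covariate, each set alone, each female group alone and each sample left out. Correlations used log2 CPM with a prior count of 2. The fits and the correlations were tested on simulated data. Exons and lengths came from GENCODE vM21. Counting intervals and floors cover counting error only.

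Genes described in full are *Col1a1*, *Col1a2*, *Col3a1*, *Col4a1* and *Col4a2*, the 5 members with the highest level per length, members past the FDR in any fit, the 5 members with the smallest p in each comparison, and the 5 genes closest to each anchor. Pathway genes are named by up to 3 smallest p per list. Other genes named in the text were chosen after their values were seen, among them *Col9a3*, *Col14a1*, *Col28a1*, *Col6a1*, *Col6a2*, *Col4a4* and *Col13a1*. The members and all lists were chosen with earlier results of these data known. 1 marker gene is not reported here.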

Additional observations from a re-analysis of the deposited data

Results flagged for a closer look

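In 4 of the 60 combinations of a described collagen gene and a group of 6 samples, 1 sample lay farther from the other 5 than Dixon's criterion allows. Chance alone flags about 1 in 20 groups. *Col12a1* had 21.5 CPM in male 3, against 4.99 to 10.0 CPM in the other males. *Col2a1* had 3.35 CPM in the same sample, against 1.65 to 2.04 CPM. *Col26a1* had 6.35 CPM in male 5, against 3.12 to 4.05 CPM. *Col23a1* had 54.1 CPM in F2/metestrus 3, against 45.3 to 48.5 CPM in the other F2/metestrus females.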

How the results depend on the processing

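The count of called collagen genes stayed at 0 for F2/metestrus against F1/proestrus and for the interaction of sex and replicate set under every alternative run. The number of collagen genes called, Male against females, was 0 under all alternatives but the replicate block, which gave 2 calls, *Col4a1* (0.33, edgeR adjusted p = 0.00572) and *Col5a3* (0.46, edgeR adjusted p = 0.0444). Over the alternatives other than leaving out samples, the adjusted p (edgeR or DESeq2) ranged from 0.00572 to 0.846 for *Col4a1* and from 0.0444 to 0.882 for *Col5a3*. Same-numbered samples correlated between -0.105 and 0.228 after group means were removed, not all above 0.1. They share the replicate set as well as the number, and the labels state no pairing, so whether the block is apt cannot be told. With the replicate set as a covariate in place of the block, 0 members were called. The block changed no other call of a described member. Between the replicate sets the count was 8 under most alternatives, 11 without a filter on low counts, and 6 to 12 with each sample left out. The 3 members correlated with *Col1a2* became 0 without the 2 farthest samples and 0 in each replicate set alone, where 9 samples enter. Over all genes the 45 calls also became 0 in each of these runs. Over all genes, males against females gave 49 calls, but 167 with DESeq2, 148 with the replicate block, 134 with the set as a covariate, 31 with at least 10 counts in every sample, 16 and 13 in the sets alone, 13 and 22 against F1/proestrus or F2/metestrus alone, and 25 to 77 with each sample left out. DESeq2 gave 2 genes for the females and 11 for the interaction, where edgeR gave 0.

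Changes of sign by at least the standard error of the value as reported, in genes described in full, were the following. Smaller ones are not listed, and no cause was tested. For F2/metestrus against F1/proestrus, *Col22a1* was -0.29 and *Col23a1* -0.055 in replicates 4 to 6 alone, and *Col4a1* was 0.070 in replicates 1 to 3 alone. For males against females, *Col11a2* was -0.12 and *Col1a1* -0.25 in replicates 4 to 6 alone, *Col3a1* was 0.30 and *Col8a2* 0.26 in replicates 1 to 3 alone, *Col8a2* was 0.30 against F1/proestrus alone and *Col2a1* was 0.015 against F2/metestrus alone. With each sample left out, the interaction ranged from -0.12 to 0.48 for *Col11a1*, -0.80 to 0.17 for *Col12a1* (0.17 without male 3), -0.25 to 0.51 for *Col24a1* and -0.22 to 0.37 for *Col26a1* (-0.22 without male 5). Depth limits *Col10a1*, at 0 to 12 counts per sample.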
